A study of Saccharomyces cerevisiae with 12 samples.

Results

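The comparison described here is that of wild-type yeast over-expressing full-length CTR1 with wild-type yeast carrying the empty vector. Its members were chosen by the sample titles as the 3 arrays named WT_CTR1 and the 3 named WT_Con, which are 6 of the 12 arrays of the series. Both groups were Saccharomyces cerevisiae BY4741, a haploid laboratory strain, with the chromosomal CTR1 gene intact. Per the labels, cultures grown overnight in synthetic medium without leucine (SC-leu) were brought to an OD600 of 0.6 and shaken at 180 rpm and 30 °C, and the treatment lasted 7 h. The medium held 0.02 mM CuCl2, described as excess copper, for both groups, so no culture without added copper entered the comparison. The promoter, copy number and selectable marker of the vector are not given in the sources used here. The labels give 3 independent experiments without saying how the cultures were separated, so the p-values measure only the spread between these arrays. The remaining 6 arrays came from a strain lacking ctr1, with the vector alone (Dctr1_Con) or with the truncated CTR1 delta-300 (Dctr1_CTR1D300). They served to estimate the spread and, in a few places, for comparison.

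Ctr1 is the high-affinity copper transporter of the yeast plasma membrane. It takes up cuprous ions, which the surface reductases Fre1 and Fre7 supply by reducing cupric copper. The copper-sensing activator Mac1 induces CTR1, CTR3 and FRE1 when copper is scarce, and the activator Cup2 induces the metallothionein genes when copper is abundant. Inside the cell, chaperones pass copper to superoxide dismutase, to cytochrome c oxidase and to Fet3, the oxidase of high-affinity iron uptake, so copper supply bears on respiration, redox defence and iron uptake. No protein or promoter sequence was used here, because the reference tables at hand pair names only.

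Each array is a single-colour Agilent expression array with 6256 gene probes, each printed as 2 spots, covering 6228 genes. The values are log2 signals relative to the array's own 75th percentile, so a gene at 0 is brighter than about 3 in 4 of the probes, and levels of different probes are not comparable with each other. Median signals of the 6 arrays ran from 1911 to 2999, between 96.7% and 98.6% of spots were well above background, and none was saturated. Of the genes, 5970 were well above background on all 6 arrays and 99 on none of them. Arrays of a group correlated across genes at r of 0.995 to 0.998 in WT_Con and 0.990 to 0.998 in WT_CTR1. On every slide the control arrays lay in column 1 and the over-expressing arrays in column 2, so over-expression and slide column cannot be told apart. Each effect was therefore also fitted for each spot of the probe alone. Single-spot values are printed for some genes only, and for the others the value is the mean of both spots. Replicate 1 of both groups lay on slide 1, and replicates 2 and 3 of both groups on slide 2.

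A gene is called changed where its limma adjusted p (Benjamini-Hochberg over all 6228 genes) is below 0.05 on the mean of both spots. It is called with each spot where, in addition, each of the 2 spots alone passes in the same direction. Changes are given as log2 fold change of WT_CTR1 over WT_Con ± SE with n = 3 arrays per group. The SE is limma's moderated one, from a spread pooled over all 12 arrays. It can be too small for a gene whose WT_CTR1 arrays vary more than the others. Of 6228 genes 799 were called, which is 12.8%, with 432 higher (6.94%) and 367 lower (5.89%). With each spot, 170 genes were called higher (2.73%) and 197 lower (3.16%), 367 in all, and every one of these 367 had the same sign in all 3 replicate pairs. Changes of at least 2-fold were seen in 22 of the genes called higher and 38 of those called lower with each spot. The median over all genes was 0.02. In the fit with the replicate number as a block, 14.5% of all genes were called higher and 11.9% lower. The list counts below are to be read beside these shares.

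The spot plot shows why both rules are given. Across genes the fold changes from the lower-numbered and the higher-numbered spot correlated at r of only 0.41, a correlation across genes that are not independent replicates. The spots differed by more than 0.5 for 852 genes, and 93 of the 799 called genes had spots of opposite sign. The ribosomal protein gene RPL41A is such a case, chosen after its values were seen: it was at 4.94 with the lower-numbered spot and at -0.26 with the higher-numbered spot. RPL41A is left out of the counts with each spot. Some genes called with each spot also differed in size between spots, the lower-numbered spot given first. MLS1 was at 0.53 and 1.54, STE2 at -1.01 and -0.36 and THS1 at -0.75 and -0.22. GNP1 was at -0.53 and -1.13, MFA1 at -0.51 and -1.08 and RPS1A at -0.30 and -0.93.

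**Figure D1:**
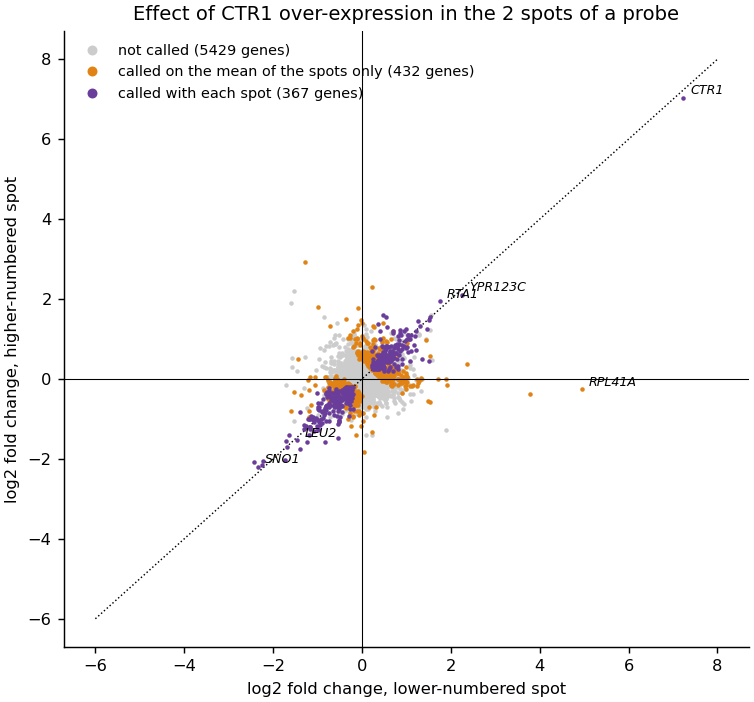
Each point is a gene, with the log2 fold change (WT_CTR1 over WT_Con) of the lower-numbered spot on the x axis and of the higher-numbered spot on the y axis; the dotted line marks equality. The 367 genes called with each spot lie in the upper right and lower left, most far out CTR1 at 7.22 and 7.04 and some away from the line, such as TDH2 at 1.51 and 0.45, while RPL41A lies far to the right near 0 on the y axis.

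The replicate pairs did not differ by the same amount. Of the 367 genes called with each spot, 231 had their smallest difference in the replicate 2 pair, 75 in the replicate 1 pair and 61 in the replicate 3 pair. Over all 6228 genes these counts were 2841, 1936 and 1451, so replicate 2 was the most frequent there too. Replicate differences are therefore given for the genes and lists that carry the results.

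CTR1 itself was first examined as a check of the labels. Its level was -2.51, -2.53 and -2.47 in the WT_Con arrays and 4.76, 4.56 and 4.53 in the WT_CTR1 arrays. All 3 over-expressing arrays lay far above all 3 controls, and the SD within a group was 0.03 and 0.13. The rise was 7.12 ± 0.16 (adjusted p = 1.02e-09), with 7.22 and 7.04 for the single spots. It was the largest rise of all genes called with each spot, ahead of one of 2.17. The probe reads chromosomal and vector-borne CTR1 together.

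YPR123C, a reading frame that overlaps CTR1, had the second-largest rise among genes called with each spot. It was at -3.27, -3.46 and -3.34 in WT_Con and at -0.99, -1.38 and -1.19 in WT_CTR1, with no overlap, and rose by 2.17 ± 0.30 (adjusted p = 0.00118). The other genes with neighbouring systematic names did not pass the test. AXL1, a protease of a-factor maturation, was at -0.08 ± 0.09, YLH47, a mitochondrial inner membrane protein, at -0.20 ± 0.12, and YPR126C at 0.14 ± 0.14. YPR127W, a homologue of a fission yeast pyridoxal reductase, was at 0.51 ± 0.16 (adjusted p = 0.0623) and passed only in the fit with the replicate number as a block (adjusted p = 0.00191).

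Few copper genes passed the test beside CTR1. Of the 6 listed uptake genes 2 were called higher, CTR1 and FRE7, and IRC7 was called lower, against 6.94% higher and 5.89% lower over all genes; with each spot the calls were CTR1 and IRC7. CTR3, the second high-affinity transporter, was at -4.03, -4.33 and -4.10 in the controls and at -4.01, -4.18 and -3.97 with CTR1, so the groups overlapped (0.10 ± 0.08, adjusted p = 0.494). FRE1, the main surface cupric reductase, was at -3.17, -3.05 and -2.86 against -2.82, -2.61 and -2.61. These groups did not overlap, but the difference of 0.34 ± 0.15 did not pass (adjusted p = 0.172), and did so with the replicate block (adjusted p = 0.0121). FRE7, a further reductase, rose by 0.42 ± 0.12 (adjusted p = 0.0366) without passing with each spot, stood at 0.14 with normexp background correction (a model-based correction of the raw signals), and lost its call when any single one of the 6 arrays was left out, but not without slide 1 (adjusted p = 0.0258). REE1, known for a role in enolase regulation, was at 0.05 ± 0.10.

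IRC7, a cysteine desulfhydrase gene that is a known target of Mac1, was the copper-list gene that fell. It stood at -0.57, -0.29 and -0.46 in WT_Con and at -1.28, -1.04 and -1.31 in WT_CTR1. Every over-expressing array lay below every control, and the fall was -0.77 ± 0.10 (adjusted p = 0.000636), with -0.92 and -0.60 for the single spots. In the deletion strain IRC7 moved the other way with the truncated construct (1.26, adjusted p = 2.29e-06).

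On the mean of both spots, none of the 5 genes of copper detoxification was called by limma, and none had an unadjusted p below 0.05. The metallothionein genes CUP1-1 and CUP1-2 are near-identical copies whose probes may share signal. CUP1-1 was at 5.77, 5.52 and 5.54 in WT_Con and at 5.50, 5.41 and 5.29 in WT_CTR1 (-0.21 ± 0.14, adjusted p = 0.363). Its lower-numbered spot read -0.0, and its higher-numbered spot read -0.40 and passed alone (limma adjusted p = 0.0479). CUP1-2 was at -0.06 ± 0.14. The second metallothionein gene CRS5 was at -0.08 ± 0.08 and CUP2, their activator, at 0.21 ± 0.13. SOD1, the copper-zinc superoxide dismutase, was at 0.00 ± 0.13, but its spots read 0.36 and -0.33.

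Copper delivery showed 2 of 14 genes called higher, beside 6.94% of all genes, and none with each spot. With the replicate block 4 were higher, beside 14.5%. CTR2, which exports copper from the vacuole, rose by 0.38 ± 0.10 (adjusted p = 0.0279), and FET3 by 0.25 ± 0.06 (adjusted p = 0.0291). With the lower-numbered spot given first, CTR2 was at 0.59 and 0.19 and FET3 at 0.15 and 0.37. FET3 lay at 3.16, 3.14 and 3.14 in the controls and at 3.48, 3.29 and 3.41 with CTR1. Without slide 1 neither was called (adjusted p = 0.0846 and 0.172), and single omitted arrays ended the call in 4 and 5 of 6 cases. The chaperone genes ATX1 (0.09 ± 0.12), COX17 (0.15 ± 0.08) and CCS1 (0.02 ± 0.07), the copper pump gene CCC2 (0.21 ± 0.08) and the regulator MAC1 (-0.10 ± 0.06) did not pass. For CCS1 the single spots were called in opposite directions by limma, at 0.44 (adjusted p = 0.00102) and -0.37 (adjusted p = 0.0168). The cytochrome oxidase assembly genes SCO1 and SCO2 did not pass in the main fit but did with the replicate block (adjusted p = 0.0275 and 0.0408). PIC2, a mitochondrial copper and phosphate carrier, was at 0.41 ± 0.42, COX11 at 0.02 ± 0.11, COX19 at 0.02 ± 0.16, COX23 at 0.04 ± 0.15 and FET5 at -0.13 ± 0.09.

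**Figure D2:**
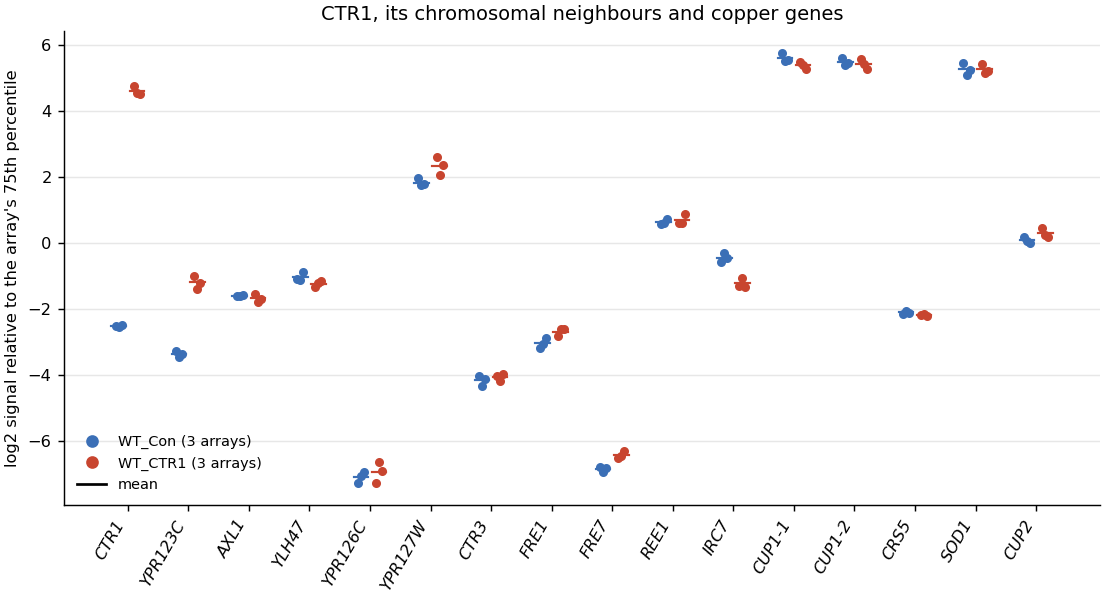
Log2 signal relative to the array's 75th percentile (y axis) for CTR1, its chromosomal neighbours and the copper uptake and detoxification genes (x axis); points are the 3 arrays of each group and bars their mean. CTR1 and YPR123C lie higher and IRC7 lower in WT_CTR1, while the CUP1-1 arrays of both groups lie between 5.29 and 5.77.

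The strain's genetic markers were examined next. HIS3, MET17 and URA3, which BY4741 lacks, were not well above background on any of the 6 arrays. LEU2, also deleted from the BY4741 chromosome, was bright, at 6.01, 5.69 and 5.89 in WT_Con and 4.49, 4.14 and 4.42 in WT_CTR1, and fell by -1.51 ± 0.26 (adjusted p = 0.00386). The medium lacked leucine. LEU2 also fell with the truncated construct in the deletion strain (-6.38, adjusted p = 3.78e-08), and without slide 1 its fall kept its size but not its call (-1.51, adjusted p = 0.0701). LEU2 is therefore not counted in the leucine synthesis list below. Of the mating-type genes, the a-specific MFA2 (0.19 ± 0.12) and BAR1 (0.13 ± 0.13) did not pass. MFA2 passed in limma with the replicate block (adjusted p = 0.0476) and with the higher-numbered spot alone (0.59, adjusted p = 0.0128). Its lower-numbered spot was at -0.20. The a-factor gene MFA1 fell by -0.81 ± 0.16 (adjusted p = 0.00817) and STE2, the alpha-factor receptor gene, by -0.70 ± 0.09 (adjusted p = 0.00106). The alpha-specific genes were not silent by the scanner's flag: MF(ALPHA)1, MF(ALPHA)2 and STE3 were well above background on all 6 arrays, at -7.61 to -2.46. MF(ALPHA)1 rose from between -5.58 and -5.39 to between -4.88 and -4.44 (0.79 ± 0.14, adjusted p = 0.00528). MFA1 and MF(ALPHA)1 lost their calls without slide 1 (adjusted p = 0.0564 and 0.0508).

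The broadest change was a fall of amino acid synthesis genes, led by leucine, isoleucine and valine. Yeast makes these branched-chain amino acids in a shared pathway, and the activators Gcn4 and Leu3 are known to control many of its genes. Of 12 listed genes 11 were called lower, against 5.89% of all genes, 10 of them with each spot (3.16% of all genes). The list's median was -0.87, and -0.95, -0.68 and -1.01 in replicates 1, 2 and 3, beside 0.02 over all genes. All 12 genes had non-overlapping groups, as did 30.3% of all genes, and all 12 were called with the replicate block.

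LEU1, the isopropylmalate isomerase, fell most. It was at 2.51, 2.75 and 2.68 in WT_Con and at 0.55, 1.75 and 0.88 in WT_CTR1, a fall of -1.59 ± 0.24 (adjusted p = 0.00204). All over-expressing arrays lay below all controls, with replicate 2 the nearest to them. ILV3, the dihydroxyacid dehydratase, stood at 3.43, 3.61 and 3.50 against 1.96, 2.70 and 2.05 (-1.28 ± 0.17, adjusted p = 0.00106). Like LEU1, it encodes an enzyme with an iron-sulfur cluster. OAC1, the mitochondrial carrier for oxaloacetate and isopropylmalate, was at 1.07, 1.25 and 1.01 against -0.20, 0.34 and -0.15 (-1.11 ± 0.13, adjusted p = 0.00047). LEU4, the isopropylmalate synthase that commits carbon to leucine, was at 4.26, 4.43 and 4.32 against 3.15, 3.53 and 3.22 (-1.03 ± 0.12, adjusted p = 0.00047). Each of these 4 genes fell with both spots and in all 3 replicate pairs, and stayed called with any single array left out and without slide 1. LEU3, the pathway's activator, was the member not called (-0.19, adjusted p = 0.0691, and 0.0312 with the replicate block). The list had 10 to 11 calls when 1 array was left out and 9 without slide 1.

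Arginine synthesis genes were mixed. Of 10 genes 6 were called lower and none higher, beside 5.89% and 6.94% of all genes. With each spot 4 were lower, beside 3.16%, and the median was -0.49. Without WT_CTR1 replicate 2 the list had 5 lower and 2 higher. ARG7, ornithine acetyltransferase, was at 1.81, 1.86 and 1.82 against 0.57, 0.95 and 0.62 (-1.12 ± 0.09, adjusted p = 0.000111). Every over-expressing array lay below every control by more than 0.8. ARG2, which makes acetylglutamate, fell by -0.60 ± 0.08 and ORT1, the mitochondrial ornithine carrier, by -0.58 ± 0.07.

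Histidine genes were lower in 5 of 6 cases, beside 5.89% of all genes. With each spot 4 were lower, beside 3.16%, and the median was -0.48. HIS4, a multifunctional enzyme of the pathway, stood at 2.72, 2.75 and 2.83 against 1.86, 2.09 and 1.96 (-0.79 ± 0.10, adjusted p = 0.000853). HIS5 fell by -0.75 ± 0.11, HIS7 by -0.67 ± 0.12 and HIS2 by -0.29 ± 0.06. HIS2 was not called without slide 1 (adjusted p = 0.0877), where the list had 3 calls.

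Aromatic amino acid genes were lower in 10 of 14 cases, beside 5.89% of all genes, and in 8 with each spot, beside 3.16%. Their median was -0.53, and -0.53, -0.42 and -0.57 in the replicate pairs. ARO4 and ARO3 encode the 2 isoenzymes that open the pathway. ARO4 was at 3.20, 3.27 and 3.25 in WT_Con and at 2.19, 2.46 and 2.26 in WT_CTR1 (-0.94 ± 0.09, adjusted p = 0.000182). ARO3 was at 1.69, 1.69 and 1.77 against 0.87, 0.91 and 0.74 (-0.88 ± 0.09, adjusted p = 0.000278). For both, the groups were separated by more than 0.7. The tryptophan branch genes TRP3 (-0.66 ± 0.11) and TRP2 (-0.63 ± 0.09) fell too, and the list had 10 genes called lower with any 1 array left out and 8 without slide 1.

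In threonine, serine and glycine synthesis, 11 of 15 genes were called lower, beside 5.89% of all genes, and 6 with each spot, beside 3.16%. All 15 had a negative fold change (median -0.46). HOM3, the aspartate kinase that opens the threonine and methionine branch, was at 1.31, 1.40 and 1.38 against 0.43, 0.55 and 0.52. Its fall of -0.86 ± 0.06 (adjusted p = 4.21e-05) had the same size in each replicate pair, at -0.89, -0.85 and -0.85. THR4, threonine synthase, fell by -0.52 ± 0.10. GCV1 and GCV2, subunits of the mitochondrial glycine decarboxylase, fell by -0.85 ± 0.17 and -0.84 ± 0.18, but were not called without slide 1 (adjusted p = 0.108 and 0.122). There the list had 4 calls.

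**Figure D3:**
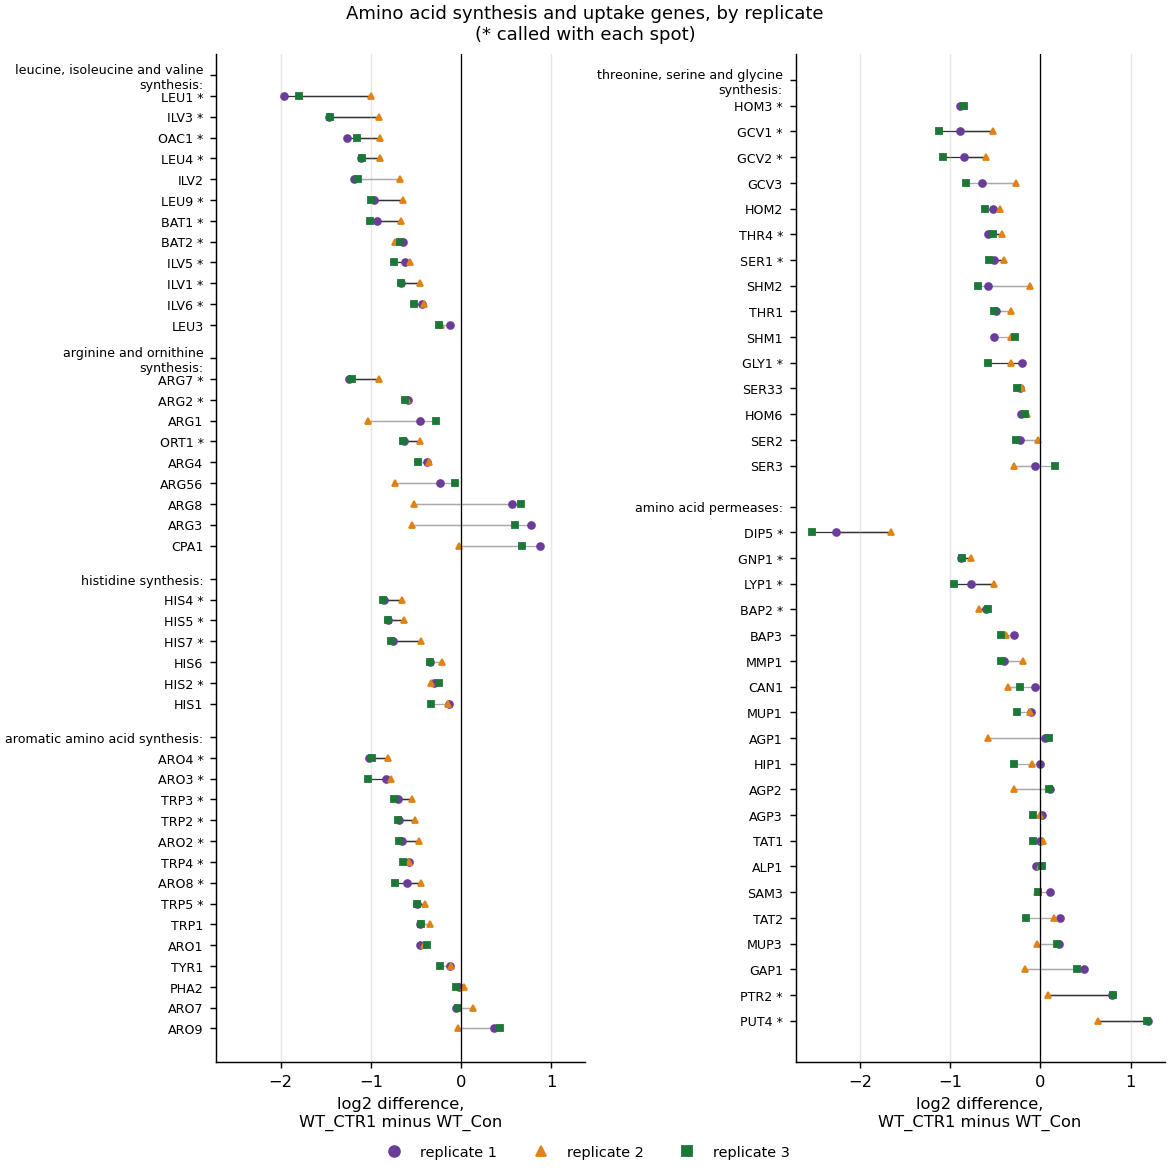
Log2 difference between WT_CTR1 and WT_Con (x axis) in replicates 1, 2 and 3 for each gene of 6 lists of amino acid synthesis and uptake (y axis); an asterisk marks genes called with each spot, and 1 gene is not drawn. The branched-chain genes lie left of 0 in every replicate, DIP5 lies furthest left, and replicate 2 often lies nearest to 0.

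Lysine, sulfur and glutamate supply genes were examined next. Of 10 lysine genes 2 were called lower, beside 5.89% of all genes, and none with each spot (median -0.40). With the replicate block 6 were lower, beside 11.9%. Counts ran from 0 to 7 when 1 array was left out, with 0 without WT_CTR1 replicate 3 and 7 without WT_CTR1 replicate 2. Of 29 genes of sulfate assimilation, methionine and glutathione 9 were lower, beside 5.89% of all genes (median -0.22). With each spot 5 were lower, beside 3.16%, and without slide 1 the count was 4. It was 5 to 10 with 1 array left out, with 5 without WT_CTR1 replicate 3, all lower. MET13, a methylenetetrahydrofolate reductase, fell by -0.70 ± 0.08 and MET16, the PAPS reductase, by -0.66 ± 0.13. STR2, which makes cystathionine, fell by -0.59 ± 0.10 and SAM4, a homocysteine methyltransferase, by -0.58 ± 0.09.

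Of 18 genes of glutamate, glutamine, aspartate and proline supply 8 were lower and 1 higher, beside 5.89% and 6.94% of all genes. With each spot 6 were lower, beside 3.16%. Without WT_CTR1 replicate 3, 4 were lower and 1 higher. With the replicate block 9 were lower and 3 higher, beside 11.9% and 14.5%. ASN1, asparagine synthetase, was at 2.83, 2.91 and 2.91 in WT_Con and at 1.63, 1.84 and 1.61 in WT_CTR1. The groups were more than 0.9 apart, with a fall of -1.19 ± 0.09 (adjusted p = 6.65e-05). IDP1, the mitochondrial isocitrate dehydrogenase that yields NADPH, fell by -0.50 ± 0.06. CIT2, the peroxisomal citrate synthase, fell by -0.43 ± 0.12 and GLT1, glutamate synthase, by -0.39 ± 0.09, but both lost their call in most single-array omissions, and CIT2 with normexp (adjusted p = 0.0863). In the list of 10 regulators of these pathways 1 gene was called in each direction and none with each spot, and with the replicate block 1 was higher and 2 lower.

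Uptake genes went both ways. Of 20 amino acid permease genes 5 were lower and 2 higher, beside 5.89% and 6.94% of all genes. With each spot 4 were lower and 2 higher, beside 3.16% and 2.73%. Without slide 1, 3 were lower and none higher. DIP5, the permease for glutamate and aspartate, was at -2.25, -1.78 and -1.86 in the controls and at -4.52, -3.44 and -4.39 with CTR1, and fell by -2.15 ± 0.24 (adjusted p = 0.000371). Its groups were far apart, and the fall was -2.27, -1.66 and -2.53 in the replicate pairs. GNP1, a glutamine permease, fell by -0.84 ± 0.09 and LYP1, the lysine permease, by -0.75 ± 0.19. PUT4, the proline permease, rose by 1.00 ± 0.23. LYP1 and PUT4 were not called without slide 1 (adjusted p = 0.0517 and 0.116).

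Genes for the use of poor nitrogen sources, which yeast represses when good nitrogen is at hand, were mostly not called (median 0.14). Of 21 genes 5 were called higher and 2 lower, beside 6.94% and 5.89% of all genes, 4 and 2 with each spot, and 10 higher and 2 lower with the replicate block, beside 14.5% and 11.9%. DAL3, of allantoin breakdown, rose by 0.68 ± 0.19, and the ammonium transporter genes MEP2 and MEP1 by 0.56 ± 0.11 and 0.54 ± 0.15. The MEP2 difference was 0.81, 0.17 and 0.72 in replicates 1, 2 and 3, so it was small in replicate 2. UGA3, the activator of GABA use, fell by -0.52 ± 0.07. None of the rises was called without slide 1 (adjusted p = 0.112 for DAL3, 0.154 for MEP2 and 0.231 for MEP1), and 1 to 4 genes of the list were called higher with 1 array left out, with 4 without WT_CTR1 replicate 2. With normexp DAL3 was not called (adjusted p = 0.0839).

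The 2 steepest falls among genes with a known role were in vitamin B6 synthesis. SNO1 and SNZ1 encode the subunits of the enzyme that makes pyridoxal phosphate. SNO1 was at -1.56, -1.30 and -1.36 in WT_Con and at -4.45, -2.44 and -4.18 in WT_CTR1 (-2.28 ± 0.40, adjusted p = 0.00451). SNZ1 was at 2.31, 2.70 and 2.55 against -0.33, 1.36 and -0.13 (-2.22 ± 0.35, adjusted p = 0.00237). In both the groups did not overlap, and the replicate 2 difference was the smallest, at -1.13 for SNO1 and -1.34 for SNZ1. The SD was 0.13 in WT_Con and 1.09 in WT_CTR1 for SNO1, and 0.19 and 0.92 for SNZ1. SNO1 was not called without slide 1 (-1.98, adjusted p = 0.0697). Of the 10 genes of the list 3 were lower, beside 5.89% of all genes, and 2 with each spot, beside 3.16%. With the replicate block 6 were lower and 1 higher, beside 11.9% and 14.5%.

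Purine synthesis genes and those that charge transfer RNA were also lower. Of 16 purine genes 11 were lower, beside 5.89% of all genes, and 8 with each spot, beside 3.16% (median -0.50). All 16 had their smallest difference in replicate 2, as did 2841 of all 6228 genes. IMD2, IMP dehydrogenase of the guanine branch, fell by -0.81 ± 0.09 (adjusted p = 0.000371), and it fell in the deletion strain with the truncated construct as well (-1.36). ADE57, a bifunctional enzyme of the early steps, fell by -0.78 ± 0.15, ADE1 by -0.74 ± 0.16 and ADE17 by -0.66 ± 0.14. These 3 ADE genes lost their call without slide 1 (adjusted p = 0.0585, 0.108 and 0.12), where the list had 4 calls, against 7 to 14 called lower with 1 array left out, highest without WT_CTR1 replicate 2. Of 8 pyrimidine genes 1 was called, with 1 more, lower, under the replicate block. The called gene was URA10, an orotate phosphoribosyltransferase, at 0.51 ± 0.13. It kept its call in 1 of 6 single-array omissions and lost it with normexp (adjusted p = 0.0512).

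Of 19 cytosolic aminoacyl-tRNA synthetase genes 11 were lower and none higher, beside 5.89% and 6.94% of all genes. With each spot 7 were lower, beside 3.16% (median -0.30). KRS1, for lysine, differed by -0.59, -0.36 and -0.68 in replicates 1, 2 and 3 (-0.54 ± 0.09, adjusted p = 0.00351). GUS1, for glutamate, fell by -0.50 ± 0.07, ILS1, for isoleucine, by -0.49 ± 0.06 and THS1, for threonine, by -0.49 ± 0.06. The list held 8 to 15 calls with 1 array left out and 4 without slide 1, where KRS1 was at adjusted p = 0.055.

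Ribosomal protein genes build the ribosome's subunits, and few of them passed with each spot. Of 137 cytosolic ones 17 were called lower and 4 higher, beside 5.89% and 6.94% of all genes, and 5 and 1 with each spot, beside 3.16% and 2.73%. Their median was -0.13, and -0.20, 0.04 and -0.25 in the replicate pairs, so replicate 2 did not share the sign. With the replicate block 36 were lower and 4 higher, beside 11.9% and 14.5% of all genes. With 1 array left out 8 to 23 were lower, 8 without WT_CTR1 replicate 3, and without slide 1 the count was 2. RPS1A fell by -0.63 ± 0.11, RPL19A by -0.39 ± 0.07 and RPS21A by -0.39 ± 0.11, while RPL14B rose by 0.59 ± 0.13 and rose also in the deletion strain (1.25). The 3 falls were not called without slide 1 (adjusted p = 0.0616 for RPS1A, 0.0544 for RPL19A and 0.183 for RPS21A). Of 53 genes of ribosome biogenesis 1 was lower, and 11 with the replicate block or without WT_CTR1 replicate 2. Of 20 subunits of RNA polymerases I and III 2 were lower, among them RPA14 (-0.29 ± 0.08, adjusted p = 0.19 without slide 1), 9 with the block, 8 without WT_CTR1 replicate 2 and at most 1 with any other single array left out. Both of these lists were near 0 in replicate 2, at 0.02 and -0.05.

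Iron-sulfur cluster assembly had 5 of 24 genes lower, beside 5.89% of all genes, 3 of them with each spot. The count was 2 without slide 1 and 3 to 8 with 1 array left out, with 3 without WT_CTR1 replicate 1 or 3 and 8 without WT_CTR1 replicate 2. CFD1, of the cytosolic assembly scaffold, was at -2.42, -2.16 and -2.35 in WT_Con and at -3.52, -2.98 and -3.50 in WT_CTR1. The groups were clearly apart, with a fall of -1.02 ± 0.14 (adjusted p = 0.00106). DRE2, which passes electrons to that machinery, fell by -0.55 ± 0.07, and ERV1, a sulfhydryl oxidase of the mitochondrial intermembrane space, by -0.43 ± 0.07. ERV1 was not called without slide 1 (adjusted p = 0.0725).

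Iron uptake genes were called in both directions. Of 7 siderophore genes ARN1, a transporter, rose by 0.67 ± 0.13 and ENB1, the enterobactin transporter, fell by -0.70 ± 0.10. In that list 6 genes had a positive fold change, and the median was 0.19, but -0.03 in replicate 2. With 1 array left out 1 to 3 of its genes were called higher. Of 16 genes of reductive uptake and iron sparing 2 were higher and 1 lower, and 4 and 1 with the replicate block, with a median of 0.03. TIS11, which destabilises messenger RNAs of iron-using proteins under iron scarcity, was at 0.30, -0.18 and 0.16 against 1.13, 0.57 and 1.19 (0.87 ± 0.17, adjusted p = 0.00739). FRE4, a reductase for siderophore iron, fell by -0.56 ± 0.08, and was at -0.35 and not called with normexp (adjusted p = 0.108). TIS11 and ARN1 were not called without slide 1 (adjusted p = 0.0616 and 0.117).

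Of 16 genes of the zinc regulon 2 were higher, beside 6.94% of all genes. With the replicate block 6 were higher and 1 lower, beside 14.5% and 11.9%. ZAP1, the zinc-responsive activator, was at -0.67, -0.56 and -0.59 in the controls and at -0.02, -0.07 and -0.19 with CTR1 (0.51 ± 0.11, adjusted p = 0.0133). Without replicate 1 of either group the ZAP1 call was lost. None of 8 vacuolar and low-affinity metal transporter genes was called with limma's adjusted p, 2 had an unadjusted p below 0.05, and their median was 0.06.

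Among rising genes, general stress genes had the highest list median. The activators Msn2 and Msn4 induce many such genes. Of 23 genes 5 were called higher (6.94% of all genes) and none lower. With each spot 4 were higher (2.73% of all genes), and 13 with the replicate block (14.5% of all genes). The median was 0.50, and 0.54, 0.20 and 0.58 in the replicate pairs. In replicate 2 lay the smallest difference of 20 of the 23 genes, beside 2841 of all 6228 genes. SPS100, known for spore wall maturation, was at -3.40, -2.72 and -3.31 against -1.55, -1.93 and -1.52 (1.48 ± 0.18, adjusted p = 0.000579). GRE1, a hydrophilin of dehydration stress, was at 0.54, 0.63 and 0.37 against 2.16, 1.61 and 1.78 (1.34 ± 0.18, adjusted p = 0.00107). In both, every over-expressing array was above every control. SIP18, another hydrophilin, rose by 1.06 ± 0.24 and MOH1, of stationary-phase survival, by 0.95 ± 0.17. SIP18 was not called without WT_CTR1 replicate 1 or without WT_CTR1 replicate 3. MOH1 rose in the deletion strain as well (0.64). Counts in the list ran from 3 to 10 with 1 array left out, with 10 without WT_CTR1 replicate 2 and 3 without WT_CTR1 replicate 1 or 3. Without slide 1 the list had 5 calls.

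Of the 22 heat shock chaperone genes 1 was higher and 2 lower, beside 6.94% and 5.89% of all genes. With each spot these were 1 and 0, beside 2.73% and 3.16%. With the replicate block they were 4 and 2, beside 14.5% and 11.9%. The one that rose, SSA3, an Hsp70 gene, went from -1.73, -1.81 and -1.81 to -0.56, -0.97 and -0.54 (1.1 ± 0.14, adjusted p = 0.00102). Of 24 thioredoxin, peroxiredoxin and oxidative stress genes 1 was called each way, beside 6.94% higher and 5.89% lower over all genes. With the replicate block 4 were higher and 3 lower, beside 14.5% and 11.9%. ATR1, an exporter of the multidrug family, fell by -0.90 ± 0.18, and OYE3, a flavin oxidoreductase, rose by 0.48 ± 0.13. ATR1 lost its call without slide 1 (adjusted p = 0.0627), and OYE3 in 5 of the 6 single-array omissions.

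Cell wall genes rose in 9 of 21 measured cases, beside 6.94% of all genes, and fell in none. With each spot 5 rose, beside 2.73%, and with the replicate block 12, beside 14.5%. The median was 0.22, and 0.17, 0.21 and 0.19 in the replicate pairs. PIR3, a wall protein bound through alkali-sensitive linkage, was at -0.62, -0.72 and -0.84 in WT_Con and at 0.64, 0.41 and 0.69 in WT_CTR1 (1.31 ± 0.22, adjusted p = 0.00313). The arrays of both groups were tightly placed and more than 1 apart. PST1, a GPI protein of the wall damage response, rose by 0.73 ± 0.10, SCW10, a glucanase-like protein, by 0.62 ± 0.13, and GSC2, the alternative glucan synthase, by 0.49 ± 0.12. GSC2 was not called without slide 1 (adjusted p = 0.189), where the list had 4 calls, as it did without WT_CTR1 replicate 1 or 3. TIR2, a wall mannoprotein gene, was the member of the 6 anaerobic wall genes that rose (0.39 ± 0.08), not called without slide 1 (adjusted p = 0.0513).

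Folding genes of the endoplasmic reticulum rose in 8 of 19 cases, beside 6.94% of all genes, and in 5 with each spot, beside 2.73%. Under the replicate block 13 were higher and 1 lower, beside 14.5% and 11.9%. The list's median was 0.28, and 0.28, 0.33 and 0.25 in the replicate pairs. Fold changes of its genes ran from -0.21 to 0.56, with 3 negative. MPD1, a disulfide isomerase, was at -2.02, -2.08 and -1.97 against -1.51, -1.53 and -1.34 (0.56 ± 0.08, adjusted p = 0.00114). SIL1, the exchange factor of the chaperone Kar2, was at -0.02, 0.00 and 0.01 against 0.51, 0.51 and 0.43 (0.48 ± 0.08, adjusted p = 0.00279). In both, the gap between groups exceeded the spread within them. ERO1, the thiol oxidase, rose by 0.47 ± 0.10 and PDI1, the main disulfide isomerase, by 0.38 ± 0.07, neither called without slide 1 (adjusted p = 0.131 and 0.068), where the list had 4 calls.

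Ribonucleotide reductase and DNA damage genes rose in 5 of 11 cases, beside 6.94% of all genes, and in 4 with each spot, beside 2.73%. All 11 had a positive fold change (median 0.29). HUG1, a small inhibitor of ribonucleotide reductase that DNA damage induces, was at -6.59, -6.76 and -6.24 in the controls and at -5.45, -4.82 and -4.71 with CTR1 (1.53 ± 0.22, adjusted p = 0.00141), and the rise was 0.99 with normexp. RNR3, the damage-inducible large subunit, was at -2.66, -2.47 and -2.56 against -1.80, -1.34 and -1.54 (1.00 ± 0.12, adjusted p = 0.000589). Both had their largest difference in replicate 2, at 1.94 and 1.14. DIN7, a mitochondrial nuclease, rose by 0.45 ± 0.08 and RNR2, the small subunit, by 0.42 ± 0.11. Without slide 1 the list had 2 calls, with DIN7 at adjusted p = 0.0598 and RNR2 at 0.0521. Of 24 genes of G1/S cyclins and DNA replication 1 was higher, none with each spot and 4 with the replicate block, and of 10 histone genes 1 was higher and none with each spot.

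**Figure D4:**
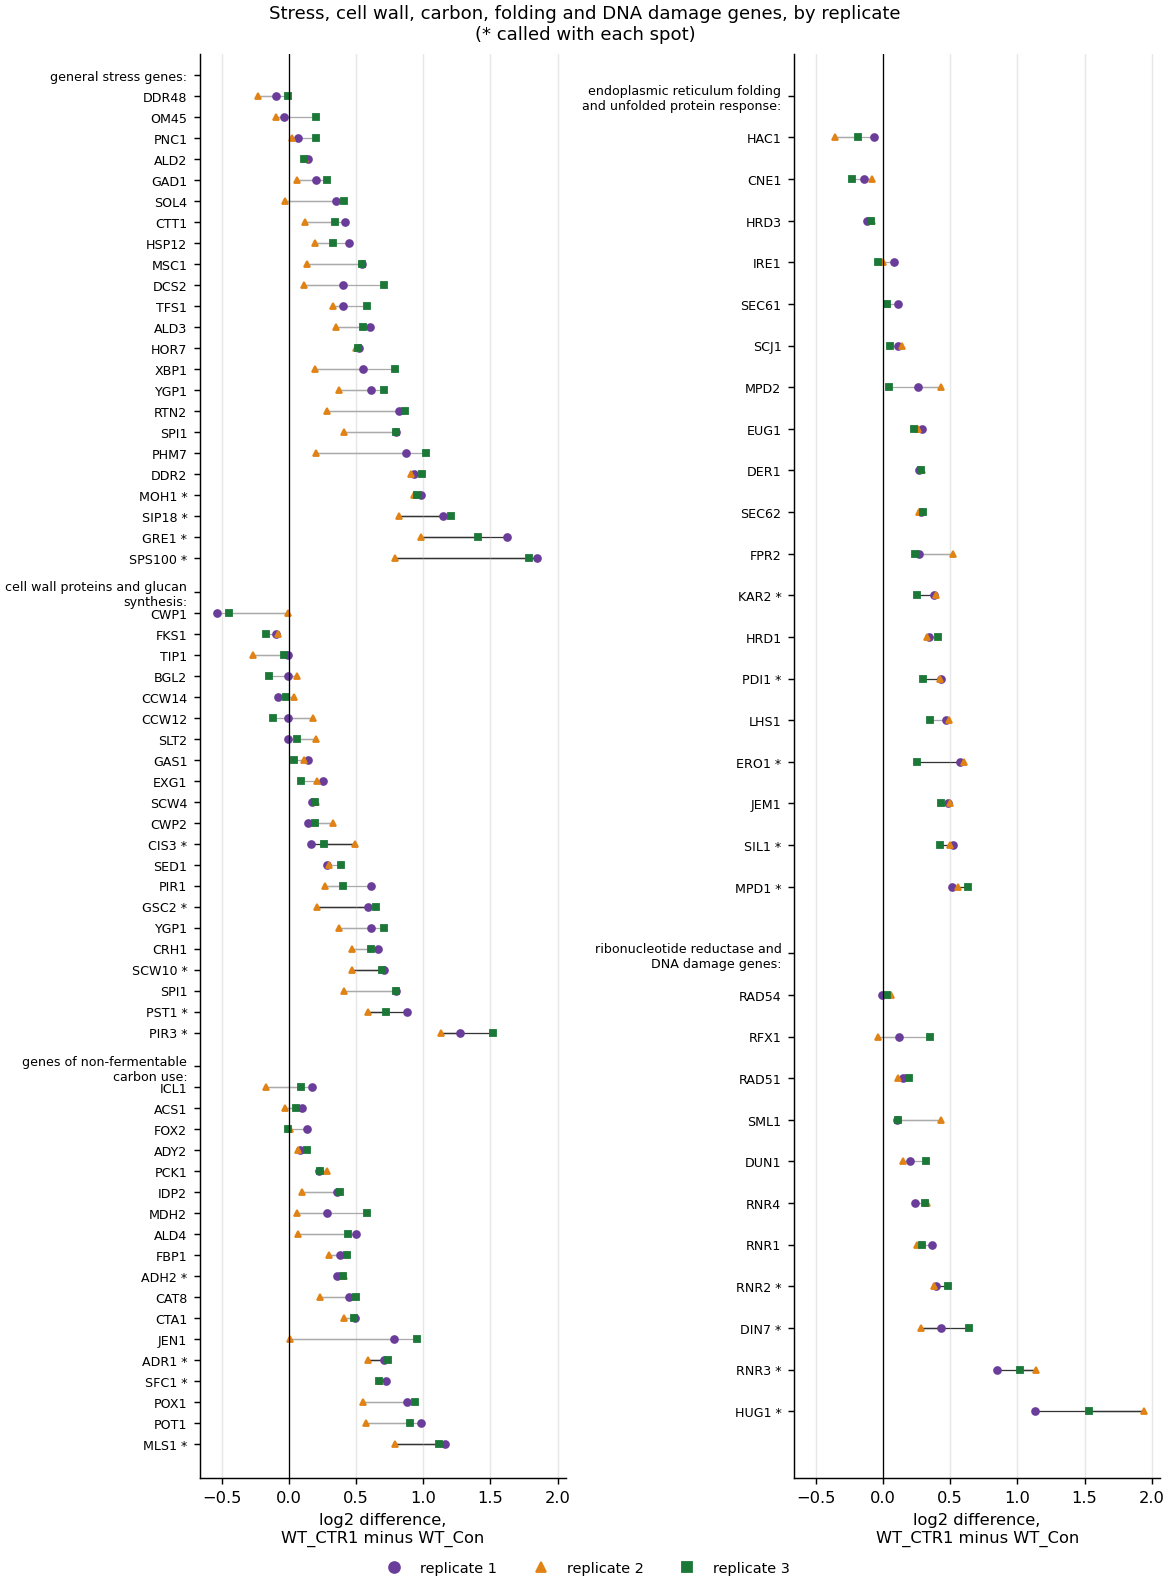
Log2 difference between WT_CTR1 and WT_Con (x axis) in replicates 1, 2 and 3 for each gene of 5 lists (y axis); an asterisk marks genes called with each spot. The endoplasmic reticulum genes lie on both sides of 0, with fold changes from -0.21 to 0.56 and a median of 0.28. The stress genes spread up to SPS100 with replicate 2 mostly nearest to 0, and HUG1 and RNR3 have replicate 2 furthest right.

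Genes for the use of non-fermentable carbon, which glucose represses, were higher in 6 of 18 cases, beside 6.94% of all genes. With each spot 4 were higher, beside 2.73%, and with the replicate block 10, beside 14.5%. All 18 fold changes were positive, with a median of 0.38 and 0.41, 0.26 and 0.46 in the replicate pairs. MLS1, malate synthase of the glyoxylate cycle, was at -4.63, -4.39 and -4.44 against -3.47, -3.61 and -3.32, a clear separation of the groups (1.03 ± 0.10, adjusted p = 0.000201). SFC1, the succinate and fumarate carrier, rose by 0.69 ± 0.14, ADR1, the activator of this set, by 0.68 ± 0.18, and ADH2, the ethanol-using alcohol dehydrogenase, by 0.39 ± 0.10. Without slide 1 the list had 1 call, and the last 3 genes were not called (adjusted p = 0.0536, 0.108 and 0.122). With 1 array left out it had 3 to 12, with 12 without WT_CTR1 replicate 2 and 3 without WT_Con replicate 2 or WT_CTR1 replicate 1 or 3. ADR1 was not called with normexp (adjusted p = 0.0953).

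Glucose uptake and glycolysis had few calls. HXT5, a hexose transporter of slow growth, was at -0.45, -0.67 and -0.43 against 0.86, 0.01 and 0.74 (1.05 ± 0.19, adjusted p = 0.00512), and HXT10 rose by 0.54 ± 0.14, as the called pair of 10 transporter genes. Neither was called without slide 1 (adjusted p = 0.0779 and 0.116), and HXT10 was at 0.33 with normexp (adjusted p = 0.158). Of 20 glycolysis and fermentation genes 3 were higher and 1 lower, all with each spot, beside 2.73% and 3.16% of all genes. With the replicate block 5 were higher and 3 lower, beside 14.5% and 11.9%. PDC6, the minor pyruvate decarboxylase, was at -3.19, -3.20 and -3.20 in WT_Con and at -1.91, -2.37 and -1.95 in WT_CTR1 (1.12 ± 0.11, adjusted p = 0.000201), with no overlap. TDH2, glyceraldehyde-3-phosphate dehydrogenase, rose by 0.97 ± 0.07, though by 1.51 with one spot and 0.45 with the other. ENO2, enolase, rose by 0.50 ± 0.10 and HXK2, hexokinase, fell by -0.51 ± 0.09. TDH2, ENO2 and HXK2 moved the same way in the deletion strain with the truncated construct (0.64, 0.61 and -0.36).

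STL1, the glycerol importer, rose from between -7.41 and -6.90 to between -6.33 and -5.66 (1.12 ± 0.19, adjusted p = 0.00413), as 1 of 2 called genes among 8 of glycerol metabolism. With normexp background correction STL1 was at 0.42 and not called (adjusted p = 0.11). Of 18 trehalose and glycogen genes GPH1, glycogen phosphorylase, was called, from 2.42, 2.02 and 2.23 to 3.33, 2.74 and 3.30 (0.90 ± 0.17, adjusted p = 0.00662). The median of that list was 0.24, but -0.04 in replicate 2, and with the replicate block 3 were higher and 1 lower. Nuclear genes of the respiratory chain and ATP synthase were higher in 4 of 37 cases, beside 6.94% of all genes, 1 of them with each spot, and in 13 with the replicate block, beside 14.5%. The count was 1 without slide 1, 10 without WT_CTR1 replicate 2 and 2 to 3 with any other single array left out. The gene called with each spot, QCR7 of complex III, rose by 0.46 ± 0.12 and lost its call in 5 of 6 single-array omissions. Of 8 mitochondrially encoded genes 2 were higher, none with each spot and 4 with the replicate block, and of 8 heme synthesis genes 1 was higher, and 1 each way with the replicate block.

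The list plot sets these groups side by side. At its foot lie the amino acid and purine lists, and at its head the stress, carbon, DNA damage and folding lists, none of which had a member called in the opposite direction with each spot.

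**Figure D5:**
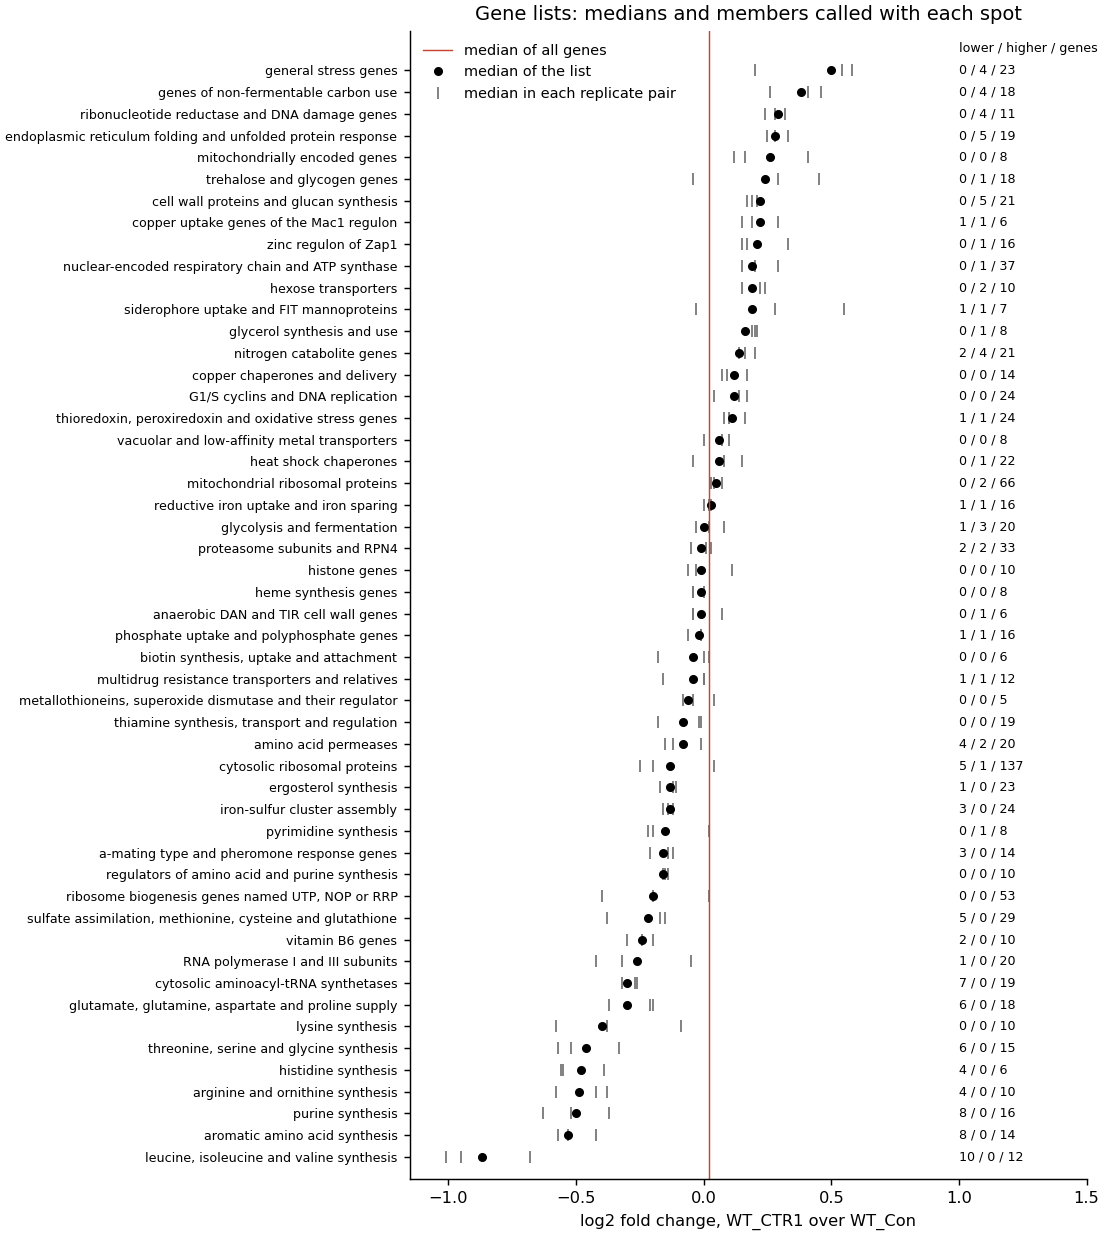
Median log2 fold change of each gene list (black points) and its median in each replicate pair (grey ticks), with the number of genes called lower, called higher (each spot) and measured at the right; the red line is the median of all genes, 0.02. Leucine, isoleucine and valine synthesis lies lowest at -0.87 and general stress genes highest at 0.50.

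Several pathways had few or no calls. Of 19 thiamine genes 1 was higher, none with each spot, with a median of -0.08. Of 6 biotin genes 1 was lower, none with each spot, with a median of -0.04. The difference from the truncated construct in the deletion strain was tested here by the interaction term of the limma fit: its effect was below that of CTR1 for 17 of 19 thiamine and all 6 biotin genes, against 26.1% of all genes. Of 16 phosphate and polyphosphate genes VTC4 (0.27 ± 0.07) rose and VTC2 (-0.29 ± 0.05) fell, and 2 were higher and 3 lower with the replicate block. Both are subunits of the vacuolar polyphosphate polymerase complex, both moved the same way in the deletion strain (0.19 and -0.21), and neither was called without slide 1 (adjusted p = 0.1 and 0.0616). VTC4 lost its call in all 6 single-array omissions and with normexp (adjusted p = 0.0635).

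Ergosterol synthesis had 2 of 23 genes lower, beside 5.89% of all genes, and 1 with each spot, IDI1 (-0.32 ± 0.08, adjusted p = 0.117 without slide 1). With the replicate block 9 were lower and 1 higher, beside 11.9% and 14.5%. Of 33 proteasome genes 3 were higher and 2 lower, beside 6.94% and 5.89% of all genes. With the replicate block 5 were higher and 4 lower, beside 14.5% and 11.9%. With each spot the calls were 2 and 2, beside 2.73% and 3.16%: RPT2 (0.42 ± 0.05) and RPT6 (0.34 ± 0.06) rose, RPN11 (-0.52 ± 0.07) and RPT1 (-0.23 ± 0.05) fell. Without slide 1, RPT6 and RPT1 were not called (adjusted p = 0.0579 and 0.174), and RPT1 was at -0.15 with normexp (adjusted p = 0.134). Of 66 mitochondrial ribosomal protein genes 8 were higher, beside 6.94% of all genes, and 2 with each spot, beside 2.73%. These 2, MRPL17 (0.53 ± 0.09) and MRPL27 (0.33 ± 0.08), were not called without slide 1 (adjusted p = 0.0616 and 0.101) or with normexp (0.24 and 0.19, adjusted p = 0.175 and 0.179). The count was 2 without slide 1, and also without WT_Con replicate 2 or WT_CTR1 replicate 3. Of 14 mating and pheromone response genes 3 were lower, all with each spot, and 5 lower and 1 higher with the replicate block. Beside MFA1 and STE2 these included SST2, which desensitises cells to pheromone, at -1.87, -1.83 and -1.97 in WT_Con and at -2.56, -2.67 and -2.83 in WT_CTR1 (-0.80 ± 0.13, adjusted p = 0.00273). Of 12 multidrug transporter genes and relatives 1 was called each way, and 2 each way with the replicate block. QDR2 fell by -0.72 ± 0.10 and RTA1 rose by 1.83 ± 0.24, or by 0.91 with normexp.

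The remaining genes among the 12 largest rises and falls belong to none of the lists. YJL213W, for which no role is given here, was at -3.96, -3.81 and -3.74 in WT_Con and at -5.74, -5.24 and -5.66 in WT_CTR1 (-1.71 ± 0.14, adjusted p = 0.000104). YGL117W, named ARO5 in the gene table, fell by -1.53 ± 0.21, ADH5, an alcohol dehydrogenase gene, by -1.31 ± 0.18, and YGR035C by -1.64 ± 0.31. YGR035C was not called without slide 1 (adjusted p = 0.0516) and was at -1.03 with normexp. SHH3, a homologue of a succinate dehydrogenase subunit, rose from -2.23, -2.66 and -2.47 to -0.74, -1.63 and -0.97 (1.34 ± 0.25, adjusted p = 0.00638), and LEE1, a zinc-finger protein gene, rose by 1.19 ± 0.27 but was not called without slide 1 (adjusted p = 0.0592). YBL012C and YBR144C fell by -2.28 ± 0.25 and -1.90 ± 0.26, and by -1.32 and -0.98 with normexp.

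YBL012C, YBR144C and RTA1, a membrane protein gene, also moved the same way with the truncated construct in the deletion strain, where over-expressing arrays again lay in column 2. They were at -2.05, -1.62 and 1.25 there, in that order. Of the 367 genes called with each spot, 70 were called in the same direction in both strains. Apart from CTR1, the over-expressed gene itself, a response to either construct and slide column cannot be told apart for these. Among the genes named above, the 70 also held LEU2, STE2, VTC2, VTC4, IMD2, ADE1, URA10, GUS1, RPL14B, RPN11, TDH2, HXK2, ENO2, MOH1, OYE3, YPR123C and CTR1. In contrast, 226 were called in the opposite direction in the deletion strain. The shares of all genes called in the same and in the opposite direction are not given here. The effects of the constructs differed by the interaction test for 290 of the 367. Over all genes the CTR1D300 effect was called above the CTR1 effect for 19.1% and below it for 26.1%. The 367 were chosen by their CTR1 effect, which is 1 term of that test, so a higher share among them is partly built in. The strains also differ in whether the chromosomal CTR1 is present, so the construct and the strain cannot be separated in that test. LEU2 differed too, at -1.51 with CTR1 and -6.38 with the truncated construct (limma interaction adjusted p = 3.13e-06), in medium without leucine. Whether this bears on the other differences, those of the leucine pathway among them, was not tested.

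The lists differed in this. LEU1, for example, fell by -1.59 with CTR1 and rose by 1.24 with the truncated construct. The CTR1D300 effect was above the CTR1 effect, by the interaction test, for all 12 branched-chain genes, 12 of 14 aromatic genes, 8 of 10 arginine genes and all 6 histidine genes, against 19.1% of all genes. For lysine synthesis it was above for 1 of 10 genes and below for 1, and the list's medians were -0.32 with CTR1D300 and -0.40 with CTR1. For general stress genes it was below in 16 of 23 cases and for cell wall genes in 13 of 21, against 26.1% of all genes. The separate medians were 1.19 and -0.87 for the branched-chain list and -1.09 and 0.50 for general stress, for CTR1D300 and CTR1 in that order.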

How the data were processed

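Total RNA of each culture was labelled with Cy3 and hybridised to 1 single-colour array, per the labels' protocols. The deposited intensity values (processed signals) had been background-subtracted and detrended per array with Agilent Feature Extraction 10.7.1.1, per the file headers, with flags for saturation and for signal well above background. The deposited series table holds log2 values of 5202 probes with 1 shared distribution (no source used here states the choice of probes), and its scale and direction were set by comparison with the scanner values (r of at least 0.9997, column median 11.69).

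Here log2 intensity minus each array's 75th percentile over gene probes was averaged over the 2 spots of a probe, and the brightest probe of a gene was kept. All 6228 genes were tested with limma 3.58.1 in R 4.3.3 on all 12 arrays (group means, 8 residual degrees of freedom, 2.65 prior), with Benjamini-Hochberg adjustment; the procedure was tested on simulated data. The number of arrays limits the precision. Names came from the RefSeq gene table (5740 genes) or were left as in the files (488). Same-numbered arrays of both groups deviated together from their group means (r = 0.813, 0.768 and 0.389). WT_Con replicate 1 with WT_CTR1 replicate 3 was at 0.369, and the other unlike-numbered pairs ran from -0.752 to -0.12. Same-numbered arrays also shared a slide and a slide row, so paired cultures and array position cannot be told apart. The main fit has no replicate block. The fit with the replicate as a block is given where it changes a named call or moves a list's count by over 1.5 times. The 53 gene lists and the members were chosen with earlier results of these data known. Named genes are CTR1 and its neighbours, all members of the copper and strain lists, the 12 largest rises and falls called with each spot, and up to 4 members called with each spot per list; LEU3, and members named with a remark, fall outside this rule, and 1 gene that meets it is not reported here. Normalization, background (normexp with offset 50), spot, filter, block, slide, probe and leave-one-out alternatives were tried. A planned search of promoters was not made, because no sequence was used here.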

Additional observations from a re-analysis of the deposited data

How the results depend on the processing

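CTR1 kept its call in all alternatives, at 7.05 to 7.16 with 1 array left out and 6.96 to 7.22 otherwise. Of the 6228 genes, 799 were called and 367 called with each spot. With 1 array left out these counts ran from 472 to 1104 and from 206 to 554, lowest without WT_CTR1 replicate 3 and highest without WT_CTR1 replicate 2. Without slide 1 they were 310 and 167, with 2 arrays a group. The replicate block gave 1645 and 738, and all 367 genes called with each spot passed it; apart from the values printed in the report, it changed the call of no named gene. The slide as a block gave 1284 and 578, the 6 wild-type arrays alone 513 and 255, and the lower-numbered spot alone 1343 called genes. With the 6 wild-type arrays alone, 22 of the 122 named calls besides CTR1 were lost. Median centring moved the split with each spot from 170 higher and 197 lower to 132 and 246, and normexp background correction moved it to 110 and 168. Normexp ended 17 of 123 named calls and moved 12 called values by over 1.5 times. Of these 123 genes, 93 were called with any 1 array left out, 75 without slide 1 and 69 under both. No called named gene changed sign, while 16 of all 154 named genes did so in some alternative, none of them with a reported size over 0.21. Among these, the opposite sign was called for CCS1 (-0.37 with the higher-numbered spot alone, adjusted p = 0.0168), for CUP1-2 (0.14 in the series table, limma adjusted p = 0.0474). The median of reductive iron uptake was 0.03 as reported and -0.05 with the lower-numbered spot alone; with 1 array left out it ran from -0.04 to 0.08. Of 954 list medians under alternatives, 813 moved by less than the spread between replicate pairs, and the others by more or with a turn of sign beyond it. A sign turned in 41 of them, over 11 lists whose reported medians were all within 0.06 of 0. The cause of these shifts was not tested. Of all genes 99 lacked a flag of signal above background on all 6 arrays, and values of dim genes with that flag also moved with the background correction.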

Other observations

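These genes were chosen after their values were seen, and those in this paragraph were called with each spot by limma. DIC1, the mitochondrial dicarboxylate carrier, was at -0.95 (log2 fold change), YMC1 at -0.88, YMC2 at -0.81 and GGC1, the guanine nucleotide carrier, at -0.79. ALT1, alanine transaminase, was at -0.98, ALD5, a mitochondrial aldehyde dehydrogenase, at -1.02, and PCL5, a cyclin known to act in Gcn4 turnover, at -0.76. Among the rises, FDH1, formate dehydrogenase, was at 1.05, DAK2, dihydroxyacetone kinase, at 1.01, GND2, the minor phosphogluconate dehydrogenase, at 0.94 and YPS3, a cell surface protease, at 0.89. 

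Within arginine synthesis, ARG3 and ARG8 were not called. ARG3, ornithine carbamoyltransferase, differed by 0.77, -0.55 and 0.60 in replicates 1, 2 and 3, and ARG8, acetylornithine aminotransferase, by 0.56, -0.52 and 0.66. In both genes replicate 2 was on the other side of 0 from the other pairs. The near-identical ribosomal genes RPL41A and RPL41B both gave spots of opposite sign, RPL41B at 3.77 and -0.38.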
